A study of Oryza sativa with 48 samples.

Results

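Of 35667 identifiers counted in salt-treated rice seedlings (root and 2nd leaf), 74 stood high in the leaf late, at 72 h, and not at 6 h, in both genotypes. They were selected on measured leaf values. Counts were divided by the library total and multiplied by 1000000 to give CPM, and L was the log2 ratio of the group mean to the 0 h group mean of the same genotype, each with 0.5 CPM added. Members had an L of 3 or more at 72 h and an L under 1 at 6 h in both genotypes. Their leaf values at 0, 6 and 72 h therefore carry no test and are given as a description. The leaf values at 1 h and all root values took no part in the choice.

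The study compared wild type (WT) of the cultivar Kitaake with a line labelled aoc, under a title that ties the work to jasmonate. The labels do not spell out aoc or how the line was made; the letters AOC commonly stand for allene oxide cyclase, which acts in jasmonate synthesis. Seedlings of both genotypes grew for 11 days in hydroponics, were sampled untreated (0 h) or were moved to 100 mM NaCl and sampled at 1, 6 and 72 h. Each of the 16 groups (2 tissues, 2 genotypes, 4 times) had 3 libraries, each pooled from 3 plants, and no group of untreated plants stands beside the later hours, so hours in salt and plant age cannot be told apart.

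Salt reaches a leaf in stages. The first is osmotic, as water becomes harder to take up, and a later one is ionic, as sodium carried by the transpiration stream builds up in the blade. Jasmonates are hormones made from plastid fatty acids that release defence and stress genes from repression. A leaf sample also mixes cell types, so more cells of a type and more RNA per cell cannot be told apart. The identifiers could not be paired with gene names here, as 0 of the 74 were found in the reference table. No function, sequence or leaf marker check is given for that reason, and the members are described by their values, their neighbours and their behaviour in root.

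Total counts were 29.9 to 41.0 M in leaf and 28.6 to 71.7 M in root (M, 1000000), so 3 counts in 1 library stood for 0.0731 to 0.1004 CPM in leaf and 0.0419 to 0.105 CPM in root. Replicates were uneven, and 2 leaf libraries of the earlier hours stood apart before any comparison was made. In WT 1 h replicate 3, 50 of the 74 members were at least 4-fold above the mean of the other 2 replicates (0.5 CPM added to both), where 0.803% of the 19685 identifiers averaging at least 1 CPM in leaf were. In aoc 0 h replicate 3, 42 members were, against 1.56% of the same identifiers. These sets shared 34 members, which is 68% of the first and 81% of the second. With 50 and 42 of the same 74 members raised, a large shared part follows from the set sizes. The overlap over all identifiers was not computed, so nothing is read from it. Because aoc 0 h replicate 3 entered the baseline of the rule, its count of 42 is a description. Leaving that library out gave 133 members, 64 of them among the 74. Among the 74, the largest aoc L at 6 h was then 2.39, above the rule's limit of 1.

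An L of 3 or more at 72 h was reached by 361 identifiers in WT leaf (1.01% of all) and by 174 in aoc leaf (0.488%). These shares describe the rule and nothing is read from them. Both genotypes passed for 128 identifiers, and 54 of these were set aside for an L of 1 or more at 6 h. That early rise was in WT for 52 of them and in aoc for 36. At the 72 h threshold, the lower of the 2 genotypes' L was 3.02 and 3.03 for the members just inside, and 2.99 and 2.98 for the identifiers just outside. At 6 h the last member had an L of 0.96 and the first identifier outside had 1.00.

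Among the members, the L at 72 h ran from 3.16 to 9.53 in WT, with a median of 5.11, and from 3.02 to 7.41 in aoc, with a median of 3.63. The L was higher in WT for 68 members and higher in aoc for 6. This gap moved with the baseline: without aoc 0 h replicate 3 the aoc median was 4.99. At 6 h the medians were 0.11 in WT and -1.07 in aoc, and the latter became 0.16 without that library. At 1 h, which the rule did not use, the median was 2.07 in WT but 0.17 without WT 1 h replicate 3. In aoc it was -1.27 at 1 h, and 0.08 without aoc 0 h replicate 3. With both libraries set aside, the members' median L was close to 0 at 1 and 6 h in either genotype. The rule capped the L at 6 h, and the libraries were set aside after members were seen high in them. Nothing is therefore read from these medians.

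The number of members at 1 CPM or more is given for each library as a description, as the rule used the leaf values of 0, 6 and 72 h. Of all identifiers, 18072 (aoc 1 h replicate 3) to 20036 (WT 1 h replicate 1) reached 1 CPM in the leaf libraries. In WT leaf, 21, 27 and 23 members reached it at 0 h in replicates 1 to 3. After 1 h in salt there were 35, 31 and 67, after 6 h 30, 26 and 31, and after 72 h 72, 74 and 72. In aoc leaf the counts were 21, 21 and 62 before salt, 20, 26 and 17 after 1 h, 26, 15 and 24 after 6 h, and 71, 41 and 73 after 72 h. WT 1 h replicate 3 and aoc 0 h replicate 3 thus held about as many members as most 72 h libraries, and aoc 72 h replicate 2 fell between the early and the late ones.

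**Figure D1:**
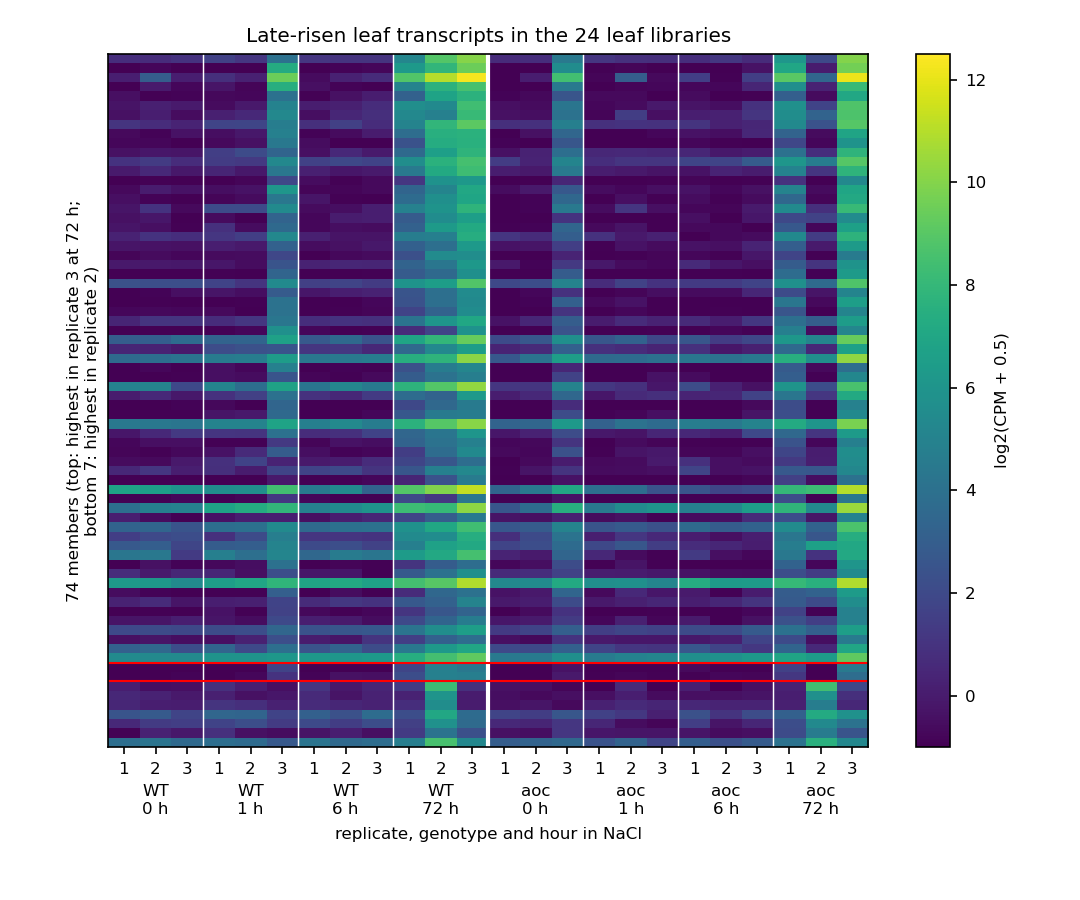
Level of each of the 74 members (lines) in the 24 leaf libraries (columns, grouped by genotype and hour in NaCl), as log2(CPM + 0.5). Bright columns stand at 72 h, in WT 1 h replicate 3 and in aoc 0 h replicate 3, and the 7 members below the lower red line are bright in the second libraries of 72 h; the 2 members between the red lines had their highest library in replicate 2 of WT and replicate 3 of aoc.

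Summed over the 74 members, WT leaf held 406, 426 and 285 CPM at 0 h and 3457, 10304 and 24135 CPM at 72 h. The largest of these sums was 2.41% of all counts in that library. In aoc leaf the sums were 141, 189 and 1659 CPM at 0 h and 2978, 1848 and 22373 CPM at 72 h. Every 72 h library lay above every 0 h library of its genotype in these sums, and the 3 libraries of 72 h differed among themselves by several fold. For each member the highest 72 h library was divided by the lowest, with 0.5 CPM added to both, which lowers the ratio where the lowest is near 0. In WT this ratio ran from 3.00 to 168, with a median over members of 7.64. In aoc this ratio ran from 5.16 to 758, with a median of 45.9.

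Member by member, all WT libraries at 72 h lay above all WT libraries at 0 h for 71 of 74, where 25.0% of the 19685 identifiers averaging at least 1 CPM in leaf did so. In aoc this held for 16 members (26.2% of those identifiers), and for 60 when only replicates 1 and 2 of 0 h were set against 72 h (32.3%). Every 72 h library lay above every 6 h library for 69 members in WT (22.1%) and 44 in aoc (16.5%). The rule used these libraries, so nothing is read from these counts.

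The order of the 72 h libraries was nearly the same from member to member. In WT, 60 of 74 members were lowest in replicate 1 and highest in replicate 3, and in aoc, 64 of 74 were lowest in replicate 2 and highest in replicate 3. Sorted by their highest 72 h library, which was done after the values were seen, 65 members were highest in replicate 3 of both genotypes. A further 7 were highest in replicate 2 of both, and the remaining 2 were highest in replicate 2 of WT and replicate 3 of aoc. These sets are a description of the libraries and were given no test between each other. The rule used 72 h group means, which favours identifiers high in a single outlying library, so the common order is in part built in. Without aoc 72 h replicate 3, only 8 identifiers met the rule. The orders were not counted over all identifiers.

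Os10g0517500 and Os02g0526400 had the highest minimum over the 6 leaf libraries of 72 h, and both belong to the 65. For Os10g0517500, WT leaf held 107, 92.0 and 58.4 CPM at 0 h, 23.1, 43.3 and 9.05 CPM at 6 h, and 476, 998 and 2458 CPM at 72 h. In aoc leaf it held 9.81, 21.4 and 138 CPM at 0 h, 5.30, 2.99 and 3.56 CPM at 6 h, and 251, 305 and 2022 CPM at 72 h. Its level at 6 h was below every 0 h library in both genotypes and its level at 72 h was above every one.

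Os02g0526400 held 76.8, 72.4 and 44.3 CPM in WT leaf at 0 h, 119, 148 and 106 CPM at 6 h, and 357, 518 and 1881 CPM at 72 h. In aoc leaf it held 38.6, 43.2 and 145 CPM at 0 h, 166, 80.6 and 86.0 CPM at 6 h, and 268, 190 and 1914 CPM at 72 h. Replicate 3 was the highest 72 h library in both genotypes, and at 72 h no library overlapped those of 0 h.

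Os03g0168100, named after its values were seen, was close to absent from leaf outside the libraries described above. WT leaf held 0, 0.0814 and 0 CPM at 0 h, 0, 0 and 156 CPM at 1 h, 0, 0.0509 and 0.0924 CPM at 6 h, and 74.4, 232 and 699 CPM at 72 h. The aoc leaf held 0, 0 and 46.1 CPM at 0 h, 0.0318, 0.0644 and 0 CPM at 1 h, 0, 0 and 0.284 CPM at 6 h, and 128, 0.530 and 781 CPM at 72 h. The same 2 early libraries were high here, and aoc 72 h replicate 2 was low.

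**Figure D2:**
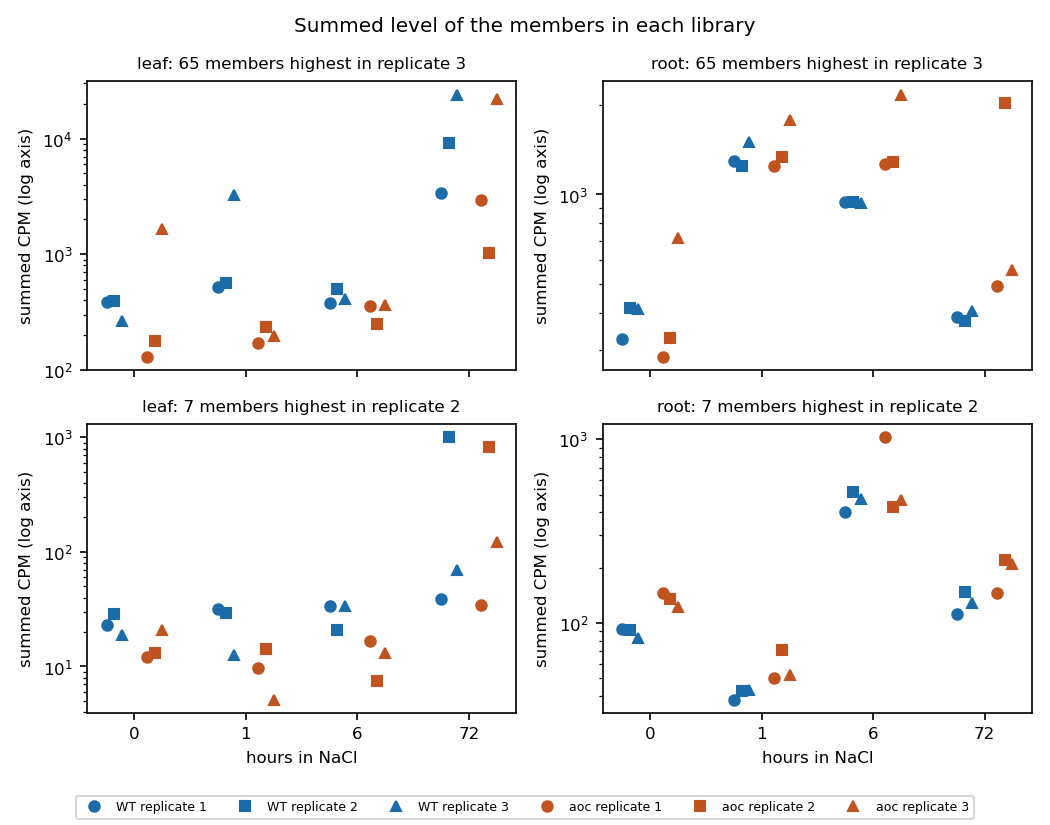
Summed CPM of the 65 members highest in replicate 3 at 72 h (top) and of the 7 highest in replicate 2 (bottom) in every leaf and root library, on log axes, with colour for genotype and marker shape for replicate. In leaf at 72 h the 65 reached their highest sums in replicate 3 and the 7 in replicate 2, and in root the 7 were highest at 6 h.

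The 7 members with their peak in replicate 2 summed to 39.1, 1003 and 69.7 CPM in WT leaf at 72 h and to 34.5, 828 and 121 CPM in aoc leaf. In both genotypes the second library was thus the one far above the others. None of the 7 was 4-fold raised in WT 1 h replicate 3 or in aoc 0 h replicate 3, where 49 and 42 of the 65 were. Os02g0183900, named after its values were seen, held 1.19, 48.1 and 0.522 CPM in WT leaf at 72 h and 0.639, 26.4 and 0.919 CPM in aoc leaf. Its WT 0 h libraries held 0.868, 0.597 and 0.568 CPM, so 1 of 3 libraries carried the rise in WT, and its aoc 72 h libraries were above those of aoc 0 h, at 0.230, 0.362 and 0.126 CPM.

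Libraries with the same number were set side by side between the genotypes at 72 h. The aoc to WT ratio was taken with 0.5 CPM added to both, which draws it towards equality for members near that level. For the 65, it had a median of 1.06 in replicate 1, with 55 members within 2-fold. In replicate 3 the median was 0.998, with 54 within 2-fold. In replicate 2 the median ratio was 0.0760, and 2 members were within 2-fold. For the 7, the medians were 0.890, 0.866 and 1.39 in replicates 1 to 3, with 6, 6 and 5 members within 2-fold. In replicate 2 the median level of the 65 was 46.0 CPM in WT and 1.28 CPM in aoc. The rule required a high 72 h mean in both genotypes, and the sorting put the peak in the same-numbered library of both. The ratio in that replicate is thus constrained in part, and all these ratios are a description. As the rule and the sorting used these same libraries, the difference between the 65 and the 7 was not tested.

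**Figure D3:**
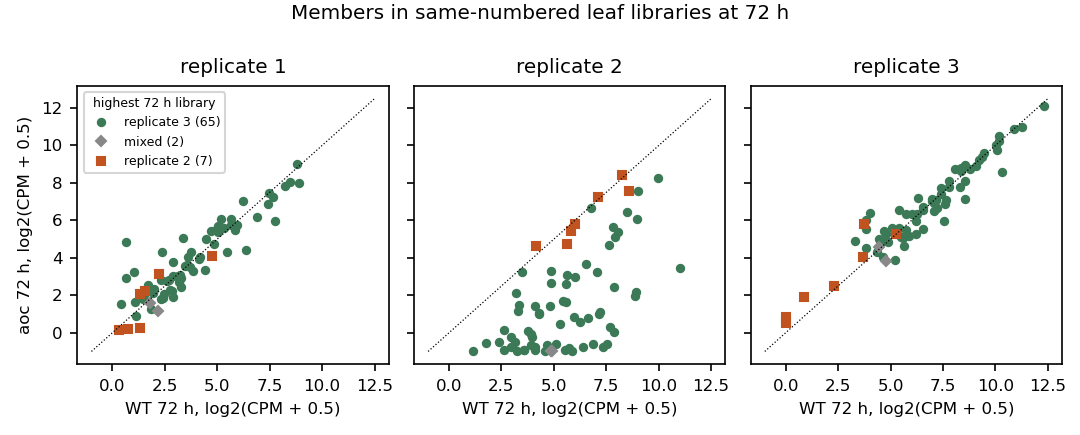
Level of each member in aoc (vertical) against WT (horizontal) at 72 h in leaf libraries of the same replicate number, as log2(CPM + 0.5); the dotted line marks equality and the markers give the replicate with the highest 72 h level. In replicates 1 and 3 most members lie near the line, and in replicate 2 the 65 lie below it while the 7 lie near it.

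The genotypes were then compared at 0, 1 and 72 h with edgeR's quasi-likelihood test on the counts of all 24 leaf libraries. Calls were made where the p adjusted by Benjamini and Hochberg was under 0.05. All 74 members passed the filter on low counts, 16 of them only with the 72 h libraries, where they were chosen to be high, in the fit. At 72 h, 0 members were called, 0 had an unadjusted p under 0.05 and DESeq2 called 0. Over all 24317 identifiers tested, 1.64% were called higher and 1.24% lower in aoc, 16.2% had an unadjusted p under 0.05 and DESeq2 called 5.64% of those it tested. The median log2 difference of the members, aoc minus WT, was -0.21, and of all identifiers 0.00. With the replicate number as a block, 0 members were called, 5 had an unadjusted p under 0.05 and the median difference was -0.72. Without aoc 72 h replicate 3, 2 members were called, 31 had an unadjusted p under 0.05 and the median was -2.53. Without WT 72 h replicate 3, these values were 0, 0 and 0.79. For these 3 fits the unadjusted p values were not counted over all identifiers. At 0 h, 0 members were called by edgeR, 15 had an unadjusted p under 0.05 and DESeq2 called 4, against 0.226% of all identifiers called higher, 0.452% lower, 10.9% with an unadjusted p under 0.05 and 2.21% called by DESeq2. The median difference at 0 h was 1.83 with all libraries and -0.61 without the 2 libraries that stood apart. As the libraries of 0 and 72 h chose the members, these counts are a description.

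At 1 h, which the rule did not use, 1 member was lower in aoc and 0 were higher, where 2.01% of all identifiers were lower and 2.53% higher. An unadjusted p under 0.05 was reached by 38 members (19.3% of all identifiers), and DESeq2 called 18 (8.44%). The median difference was -3.24 with all libraries and -0.90 without the 2 that stood apart, where 4 members had an unadjusted p under 0.05 and 0 were called. With the 72 h libraries left out of the fit, 58 members passed the filter, their median difference was -2.71, 43 had an unadjusted p under 0.05 and 9 were called. The member called was Os01g0615050. WT leaf held 27.9, 14.8 and 35.4 CPM of it at 1 h and aoc leaf 0.891, 0.161 and 0.0309 CPM, so all 3 libraries of WT lay above those of aoc. Its log2 difference was -5.90 ± 1.62 (SE) with an adjusted p of 0.0429 in edgeR, and leaving out any 1 library of the 2 groups ended the call, with adjusted p from 0.0691 to 0.185. At 0 h it had 606, 753 and 68 counts in WT leaf and 26, 18 and 323 in aoc leaf, the 323 being in the library that stood apart. At 6 h it had 452, 958 and 604 counts in WT leaf and 60, 8 and 3 in aoc leaf. All aoc libraries of 6 h lay below all WT libraries of 6 h, while at 0 h the groups overlapped. The rule used both hours, and the genotypes were not tested against each other at 6 h.

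Os01g0615050 and Os01g0615100 are neighbours in identifier order on chromosome 1, and they had a like course in leaf. At 6 h Os01g0615100 had 746, 1383 and 761 counts in WT leaf and 123, 23 and 8 in aoc leaf. Os01g0615100 held 33.1, 14.0 and 109 CPM in WT leaf at 1 h and 1.75, 1.32 and 0.371 CPM in aoc leaf, a log2 difference of -5.25 ± 1.58 that was not called (edgeR adjusted p of 0.0646). At 72 h Os01g0615050 held 83.4, 141 and 371 CPM in WT leaf and 21.0, 1.5 and 141 CPM in aoc leaf. Os01g0615100 held 213, 474 and 1290 CPM in WT leaf and 62.9, 4.06 and 389 CPM in aoc leaf at that hour. Each WT library of 72 h exceeded the aoc library of the same number for both, yet the groups overlapped and neither was called.

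The members lay on all 12 chromosomes, from 2 on each of chromosomes 7, 10 and 12 to 11 on each of chromosomes 1 and 3, which hold 13.9% and 12.0% of all identifiers. Besides the pair on chromosome 1, Os11g0303600 and Os11g0303800 were next to each other on chromosome 11. Also on that chromosome were Os11g0451700, Os11g0453900 and Os11g0454000, of which the last 2 were adjacent and the first lay 4 places away. Os11g0303600 held 35.9, 467 and 1053 CPM in WT leaf at 72 h and 67.3, 3.43 and 1031 CPM in aoc leaf, and Os11g0303800 held 32.2, 235 and 546 CPM in WT leaf and 41.3, 4.87 and 485 CPM in aoc leaf. Both were thus lowest in aoc replicate 2 and highest in replicate 3 of both genotypes. Reads of near-identical neighbours could be split between them by the counting, which the sources used here do not describe.

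In root, whose values were not used to choose the members, 72 of the 74 passed the filter on low counts. Many of them rose there already at 1 h. In WT root at 1 h, 34 members were higher than at 0 h and 1 was lower, where 17.5% of the 26195 identifiers tested were higher and 16.5% lower. At 6 h, 37 were higher and 1 lower (13.0% and 11.9% of all). At 72 h, 9 were higher and 1 lower (9.19% and 9.73% of all), so the share of higher members was by then close to that of all identifiers. In the order of the hours, the members' median log2 changes in WT root were 1.11, 1.82 and 0.43, and 1.09, 1.67 and 0.41 when the 3 members with no read at 0 h were set at the bound that 3 counts over the group allow. Leaving out WT 0 h replicate 2 left 6 members called at 72 h.

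In aoc root after 1 h, 32 members were higher and 2 lower (18.1% and 16.6% of all identifiers), and after 6 h, 41 members rose and 1 fell (16.7% and 16.6%). At 72 h, 30 were higher and 2 lower (9.46% and 10.3%). The median log2 changes were 1.12, 2.01 and 1.91. The count at 72 h rested on single libraries. It fell from 32 to 11 without aoc 72 h replicate 2, in which 24 members and 0.367% of the 22618 identifiers averaging at least 1 CPM in root were at least 4-fold above the mean of the other 2 replicates, and the median change was then 0.43. Of the 0 h libraries of aoc, leaving out replicate 1 gave 17, replicate 2 gave 14 and replicate 3 gave 48, and the count was 5 when the compared groups were fitted alone. The 24 members raised in aoc root 72 h replicate 2 included 23 of the 50 raised in WT leaf 1 h replicate 3, which is 95.8% of the former and 46% of the latter. As that leaf library had 50 of all 74 members raised, a large shared part follows from the set sizes. The overlap over all identifiers was not computed.

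Of the members higher in WT root at 1 h, 31 were also higher in aoc root, which is 91.2% of the WT calls and 96.9% of the aoc calls. Over all identifiers called higher at 1 h, these shares were 79.0% and 76.4%. After 6 h, 34 were shared (91.9% and 82.9%, against 76.7% and 59.6% over all identifiers), and after 72 h, 9 (100% and 30%, against 53.8% and 52.2%). At each hour, 0 members were called in opposite directions. Over the 6 comparisons, 52 members were higher in at least 1 (36.6% of all identifiers tested), 7 were higher in all 6 (1.05%), and 22 were higher in none, including 2 that were not tested (63.4% of all tested). The neighbours Os11g0303600 and Os11g0303800 were among the 7.

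**Figure D4:**
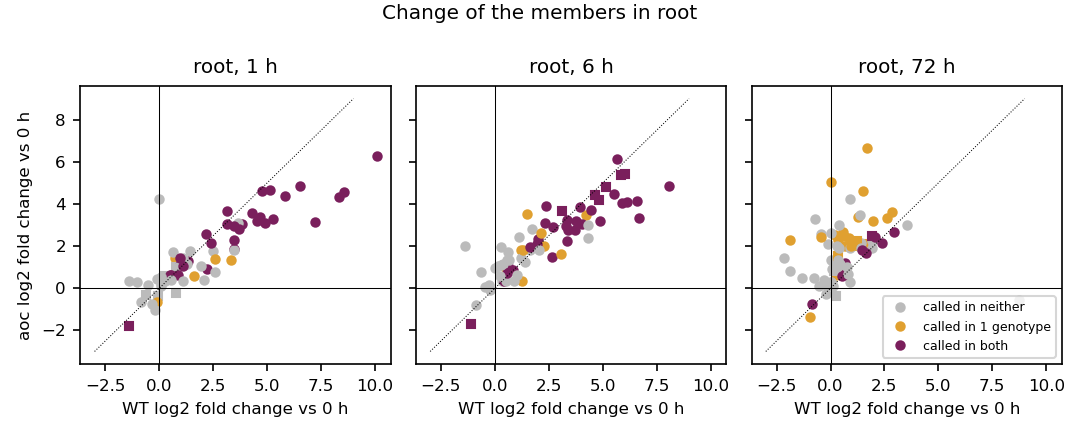
Log2 fold change from 0 h of the 72 members tested in root, aoc (vertical) against WT (horizontal) at 1, 6 and 72 h in NaCl; squares are the 7 members highest in leaf replicate 2, and the dotted line marks equality. With both directions counted, 32, 35 and 10 members were called in both genotypes, in the order of the panels, and the grey point furthest right at 72 h had no read in WT root at 0 h, so its position depends on the fit's prior count.

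The largest change among the members at 1 h in root was that of Os03g0723400, named after its values were seen. WT root held 0.0296, 0.0895 and 0.272 CPM at 0 h, 87.4, 109 and 199 CPM at 1 h, 10.1, 8.55 and 10.1 CPM at 6 h, and 0.925, 0.319 and 1.28 CPM at 72 h. The aoc root held 0.0918, 0.0350 and 4.77 CPM at 0 h, 96.3, 120 and 173 CPM at 1 h, 18.9, 25.5 and 49.6 CPM at 6 h, and 5.92, 46.0 and 3.04 CPM at 72 h. All libraries of 1 h lay above all of 0 h in both genotypes, with log2 changes of 10.08 ± 1.42 in WT (edgeR adjusted p of 2.26e-05) and 6.29 ± 1.08 in aoc (0.000177). In leaf the same member held 3.78, 3.76 and 43.0 CPM at 1 h and 30.5, 61.2 and 217 CPM at 72 h in WT. In aoc leaf it held 0.191, 1.64 and 0.247 CPM at 1 h and 43.8, 1.28 and 272 CPM at 72 h. The 1 and 72 h libraries overlapped in both genotypes in leaf, through WT 1 h replicate 3 and aoc 72 h replicate 2, while in root every 1 h library was above every library of the other hours.

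Of the 7 members with their leaf peak in replicate 2, 6 were higher in root at 6 h in WT and in aoc, 0 were higher at 1 h in either, and at 72 h 1 was higher in WT and 5 in aoc. The median log2 change of the 7 at 6 h was 4.81 in WT and 4.42 in aoc. Os02g0183900 held 0.236, 0.388 and 0.121 CPM in WT root at 0 h, 0.375, 0.538 and 0.307 CPM at 1 h, 16.0, 15.8 and 19.6 CPM at 6 h, and 0.445, 1.09 and 0.852 CPM at 72 h. Its change at 6 h was 6.05 ± 0.71 in WT (edgeR adjusted p of 3.38e-05) and 5.40 ± 0.66 in aoc (2.14e-05). It was thus high at 6 h alone in WT root, with the 3 libraries close together.

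The exception among the 7 was Os02g0756600, which fell in root at 1 and 6 h. WT root held 85.3, 74.4 and 66.0 CPM of it at 0 h, 25.3, 27.5 and 26.0 CPM at 1 h, 34.9, 33.0 and 40.7 CPM at 6 h, and 86.4, 105 and 83.5 CPM at 72 h. The log2 change in WT root was -1.40 ± 0.14 at 1 h (edgeR adjusted p of 3.61e-07) and -1.09 ± 0.14 at 6 h (5.6e-05), and in aoc root -1.79 ± 0.14 (2.25e-08) and -1.70 ± 0.14 (1.07e-06). In both genotypes the libraries of 1 and 6 h lay below all of 0 h.

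For the 65 members with their leaf peak in replicate 3, 63 were tested in root. At 1, 6 and 72 h, 34, 31 and 8 of these were higher in WT, and 32, 35 and 25 in aoc. The 2 remaining members were called in none of these comparisons. At 6 h in WT root the largest change was that of Os11g0454000. It held 0.0591, 0 and 0.272 CPM at 0 h, 18.1, 30.3 and 52.4 CPM at 1 h, 25.3, 33.2 and 35.3 CPM at 6 h, and 0.582, 0.532 and 1.38 CPM at 72 h, a change at 6 h of 8.08 ± 1.77 (edgeR adjusted p of 0.00283). Its aoc root libraries held 0.0306, 0.0700 and 8.01 CPM at 0 h and 77.8, 69.3 and 106 CPM at 6 h, a change of 4.84 ± 1.26 (0.0067). In aoc 0 h replicate 3, the high library of its group, 14 of the 74 members were at least 4-fold above the mean of the other 2 replicates (0.504% of the identifiers averaging at least 1 CPM in root).

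At 72 h in WT root, the largest rise among the members called was that of Os07g0418600, with 4.70, 4.78 and 7.57 CPM at 0 h and 54.7, 43.3 and 35.4 CPM at 72 h, a log2 change of 2.95 ± 0.72 (edgeR adjusted p of 0.00992). Its libraries did not overlap, and it was higher at 1 and 6 h as well. The member that was lower at 72 h in WT root was Os06g0270200, at 67.1, 70.7 and 69.7 CPM at 0 h and 45.8, 24.6 and 45.8 CPM at 72 h. It fell by 0.85 ± 0.18 on the log2 scale (adjusted p of 0.00384), and this call was lost when the compared groups were fitted alone (0.0649). In aoc root its log2 change at 72 h was -0.75 (edgeR adjusted p of 0.0071), called in all 11 other settings. WT leaf held 8.26, 11.3 and 4.01 CPM of it at 0 h and 20.7, 74.7 and 127 CPM at 72 h. In aoc leaf it had 120, 119 and 262 counts at 0 h and 315, 31 and 4190 at 72 h, so replicate 2 fell below every 0 h library. The rule used these leaf values, so they are a description.

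**Figure D5:**
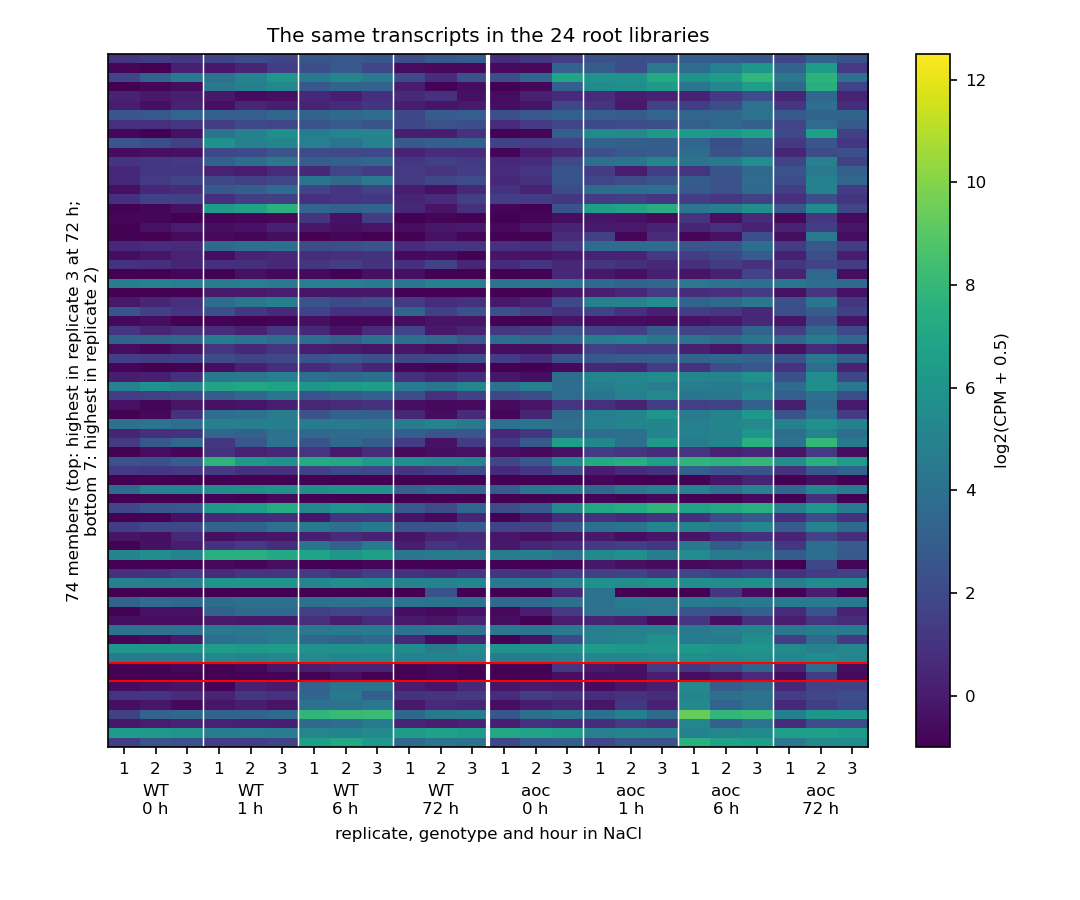
Level of the same 74 members, in the same order as the leaf map, in the 24 root libraries, as log2(CPM + 0.5). Many members are bright at 1 and 6 h in both genotypes, 6 of the 7 at the bottom are brightest at 6 h, and aoc 72 h replicate 2 and aoc 0 h replicate 3 stand out from the other libraries of their groups.

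Between the genotypes in root at 72 h, 17 members were higher in aoc and 1 was lower, where 1.85% of all identifiers were higher and 1.39% lower, with a median log2 difference of 1.70. With the replicate number as a block, 31 members were called, 29 higher and 2 lower, and 17 of the 18 were kept. The count depended on single libraries: leaving out aoc replicate 1 gave 38, and leaving out aoc replicate 2 gave 0 higher and 2 lower, with 0 of the 18 kept. Leaving out WT replicates 1, 2 and 3 in turn gave 10, 0 and 2. The count was 0 when the compared groups were fitted alone and 39 with DESeq2, which called 6.86% of all identifiers it tested. Os11g0451700 held 0.514, 0.0532 and 0.197 CPM in WT root and 12.2, 185 and 2.75 CPM in aoc root at 72 h, a difference of 8.10 ± 1.68 (edgeR adjusted p of 0.0129). Os03g0168100 held 0.171, 0.133 and 0.131 CPM in WT root and 9.31, 84.0 and 1.85 CPM in aoc root, a difference of 7.75 ± 1.76 (adjusted p of 0.0224).

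For both, each aoc library lay above each WT library, and without aoc replicate 2 the differences were 4.93 (adjusted p of 0.107) and 5.24 (0.149), so neither was called. The calls of both were also lost without WT replicate 2 or WT replicate 3, with adjusted p from 0.0589 to 0.0954, and when the compared groups were fitted alone (0.199 and 0.172). The change from 0 h to 72 h itself was tested for a difference between the genotypes. For this difference edgeR called 0 of the 72 members and 0.0% of all identifiers, 8 members had an unadjusted p under 0.05 (5.39% of all identifiers), and DESeq2 called 0 members and 0.121% of all. The median of the difference, aoc minus WT, was 0.74. Leaving out aoc 72 h replicate 2 brought it to 0.00, and it was 1.60 when replicate 3 of aoc 0 h was left out instead.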

How the data were processed

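Values were raw read counts per identifier, deposited by the authors in 1 table of 48 libraries. fastp, HISAT2, DESeq2 and build IRGSP-1.0 are named per the submitters' processing notes; no source used here gives the counter, its strand setting or the annotation release. No column was left out, and 0 rows named no gene. The test was edgeR 4.0.16 under R 4.3.3, as a robust quasi-likelihood fit over the 24 libraries of a tissue after filterByExpr and TMM scaling. It was checked on simulated counts for WT root at 72 h against 0 h only, with the same spread for all identifiers. That check does not cover leaf or libraries that stand apart. An SE is the log2 fold change over the root of its F statistic. Alternatives were RLE factors, no filter, DESeq2 1.42.0, the compared groups alone, a replicate block and each library left out. Without molecular identifiers, floors cover counting error only.

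Members, lists and tests were chosen with earlier results of these data known. The naming rule gave 2 identifiers and runs of neighbours. Others were named after their values were seen, from the up to 2 largest calls per comparison and direction. Not all of those calls were named. Keyword lists and leaf, root and seed markers needed gene names and were not analysed here. Each library is labelled a biological replicate. Same-numbered libraries deviated together (every correlation over 0.1) in 5 of 10 comparisons, among them both between the genotypes at 72 h (0.46 to 0.66 in leaf, 0.20 to 0.29 in root).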

Additional observations from a re-analysis of the deposited data

How the results depend on the processing

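The number of members followed the rule's cutoffs: 239 with an L of 2 or more, 14 with 4 or more, and 8 to 133 when single leaf libraries were left out, 8 being without aoc 72 h replicate 3 (all 8 among the 74) and 133 without aoc 0 h replicate 3. The calls in leaf at 1 h, 1 as reported, were 0 without a filter, 2 with the replicate block, 4 with the groups alone, 18 with DESeq2, 9 with the 72 h libraries left out of the fit, 0 without the 2 libraries standing apart, and 0 whichever single library was left out. In leaf at 0 h DESeq2 called 4, and at 72 h the range over single libraries was 0 to 2. In root, leaving out single libraries gave 6 to 10 calls in WT at 72 h, 11 to 48 in aoc at 72 h and 0 to 38 between the genotypes at 72 h, where the groups alone gave 5 for aoc at 72 h and 0 between the genotypes, DESeq2 gave 39 and the replicate block 31. The block changed no other count by over 1.5 times except in leaf at 1 h, where the numbers were not shown to pair the libraries. The causes were not tested. Among the up to 2 largest calls per comparison and direction, no value changed sign in the settings run. The signs of the other calls were not checked. At 3 libraries a group, values near the floor of 3 counts limit the folds of members scarce at 0 h. With group medians in place of means, 54 identifiers met the rule, 37 of them among the 74. Leaving out both libraries standing apart and the fit without 72 h were chosen after seeing the data.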
